A study of Mus musculus with 20 samples.

Results

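The thermogenic program of brown and beige fat was followed here through 10 genes, Ucp1, Cidea, Dio2, Ppargc1a, Ppargc1b, Prdm16, Elovl3, Zic1, Ebf2 and Slc27a2, chosen by name from 25219 genes in the expression table. All 10 were found. RNA was sequenced from inguinal white adipose tissue (iWAT) and brown adipose tissue (BAT) of male mice, with 5 libraries for each tissue and genotype. Ai-α4KO mice carry floxed alleles of Igbp1, the gene for the phosphatase-binding protein α4, and an Adiponectin-CreERT2 transgene, which drives a tamoxifen-inducible Cre recombinase in adipocytes. Per the study's methods, Control mice carry the floxed alleles without the transgene, whereas the labels call them WT. Tamoxifen went to all 4 groups as 5 injections of 100 mg/kg over 6 days from 2 months of age, and tissue was taken 1 week after recombination. The deletion is restricted to cells with an active Adiponectin promoter, and the other cells of each depot are not targeted. The labels number the libraries within a group without naming the animals, and p-values therefore measure the spread between libraries, which may be technical.

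Brown adipocytes, and the beige adipocytes that appear within white depots, oxidise fat to make heat. Noradrenaline from sympathetic nerves acts on the β3-adrenergic receptor and raises cAMP, which releases fatty acids and induces the thermogenic genes. The transcriptional regulators Ebf2, Prdm16, Ppargc1a and Ppargc1b act with PPARγ and related receptors to keep the genes of the oxidative machinery on, and Zic1 marks the classical brown lineage. Ucp1 then lets protons back across the inner mitochondrial membrane and so releases heat in place of ATP, while Dio2 makes active thyroid hormone locally and Cidea, Elovl3 and Slc27a2 act on lipid droplets and fatty acids. In the annotation columns of the deposited table, 4 of the 10 genes carry a mitochondrial term and 6 a nuclear term, and Slc27a2 and Ucp1 are both listed under PPAR signaling.

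The promoters of 4 members are shown because these genes stood at the ends of the pattern described below, with Ucp1 and Slc27a2 lower in both knockout depots and Ppargc1a and Dio2 not called in BAT. RefSeq promoter sequence (build GRCm38.p6) was matched for 6 of the 10 genes, by symbol. Each line gives the 250 bases before the RefSeq start, 5′ to 3′ on the gene's strand. The RefSeq starts of Ppargc1a and Dio2 lie upstream of the gene ends in the deposited table. Capitals mark TGACG, the core of the cAMP response element (CGTCA where it lies on the other strand), its full palindrome TGACGTCA, and AGGTCA, the core sequence of nuclear receptor sites (TGACCT on the other strand).
Ucp1, chr8:83290098-83290347, plus strand: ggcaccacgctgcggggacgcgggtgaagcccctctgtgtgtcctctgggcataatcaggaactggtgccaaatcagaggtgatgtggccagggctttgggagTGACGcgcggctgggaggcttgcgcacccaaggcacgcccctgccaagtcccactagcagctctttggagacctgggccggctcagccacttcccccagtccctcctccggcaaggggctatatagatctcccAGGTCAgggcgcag
Slc27a2, chr2:126552774-126553023, plus strand: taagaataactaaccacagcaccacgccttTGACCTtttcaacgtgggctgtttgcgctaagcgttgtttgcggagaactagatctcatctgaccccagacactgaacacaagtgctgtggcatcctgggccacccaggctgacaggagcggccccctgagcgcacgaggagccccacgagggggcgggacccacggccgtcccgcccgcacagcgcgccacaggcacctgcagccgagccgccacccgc
Ppargc1a, chr5:51567726-51567975, minus strand: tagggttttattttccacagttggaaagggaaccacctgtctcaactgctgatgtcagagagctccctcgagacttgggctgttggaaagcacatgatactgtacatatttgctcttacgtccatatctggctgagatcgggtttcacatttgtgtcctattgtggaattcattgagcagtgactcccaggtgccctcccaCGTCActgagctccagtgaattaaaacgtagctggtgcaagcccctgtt
Dio2, chr12:90739039-90739288, minus strand: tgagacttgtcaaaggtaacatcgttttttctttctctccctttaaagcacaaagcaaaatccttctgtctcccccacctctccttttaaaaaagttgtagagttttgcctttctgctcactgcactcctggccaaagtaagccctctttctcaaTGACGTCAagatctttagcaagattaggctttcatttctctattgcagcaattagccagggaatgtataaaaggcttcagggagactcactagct

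Searched on both strands, TGACG was present in 3 of the 6 member windows, those of Ucp1, Ppargc1a and Dio2, and in 17.8% of 32851 mouse promoter windows of the same length. The palindrome TGACGTCA, which contains TGACG on both strands, was found only in Dio2 among the 6, beginning 95 bases before the start, and in 1.55% of all windows. AGGTCA lay in the windows of Ucp1 and Slc27a2, against 14% of all windows, and TATAAA in that of Dio2, against 12.4%. The letters CCCNNGGG, searched for the EBF family, were in 0 of the 6 windows and in 11.8% of all. These matches describe letters in a short window and no binding was measured.

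Library totals ran from 24023371 to 50384446 counts, which sets the precision for the weakly expressed members. Expression is given as CPM, a normalised read count that puts all 20 libraries on 1 scale by the TMM method, and levels are compared between genes only as FPKM, which divides by transcript length. A gene was called when the quasi-likelihood test of edgeR gave an adjusted p (Benjamini-Hochberg, over all genes tested) below 0.01 and the 2 groups differed at least 2-fold. Igbp1 fell in both depots, by 2.65 on the log2 scale in iWAT (SE 0.094, adjusted p = 4.99e-08) and by 2.5 in BAT (SE 0.17, adjusted p = 2.20e-07). Summed levels of 16 general adipocyte markers ran from 59872 to 82648 CPM in Control iWAT and from 23029 to 34952 CPM in Ai-α4KO iWAT, and from 48646 to 52021 CPM and 21711 to 30684 CPM in BAT. Some libraries stood apart in markers of other cells. B cell markers summed to 491 and 196 CPM in iWAT Control libraries 1 and 4 and to at most 13.2 CPM in any other library, and skeletal muscle markers summed to 7472 and 6225 CPM in iWAT Control library 4 and Ai-α4KO library 1 against 5.91 to 195 CPM in the other iWAT libraries. In BAT the muscle sum was 1059 to 11555 CPM in Control and 15672 to 51157 CPM in Ai-α4KO, without overlap. The macrophage sum was 1152 to 1947 CPM in Control iWAT and 7398 to 9958 CPM in Ai-α4KO iWAT, and 237 to 537 CPM against 4253 to 7007 CPM in BAT. Endothelial markers (6 genes) summed to 412 to 557 CPM in Control and 231 to 280 CPM in Ai-α4KO iWAT, and to 799 to 1169 CPM and 305 to 391 CPM in BAT, with 3 and 5 of the 6 called lower against 10.7% and 13.3% of all genes. Stromal progenitor markers (7 genes) summed to 740 to 1056 CPM in Control BAT and 1390 to 1808 CPM in Ai-α4KO BAT, while their sums overlapped in iWAT, and 2 of the 7 were called higher in BAT and 1 in iWAT, against 18.2% and 11.3% of all genes. Nerve and Schwann cell markers (6 genes) summed to 36.4 to 119.7 CPM and 27.4 to 61.4 CPM in iWAT and to 110.1 to 229.9 CPM and 56.2 to 182.7 CPM in BAT, with overlap in both depots. Of these, 0 of 4 tested were called in iWAT, where 11.3% of all genes were called higher and 10.7% lower. In BAT 1 of 5 was called higher and 1 lower, near the 18.2% and 13.3% of all genes. The 2 genes, named after their values were seen, were Th, which makes the precursor of noradrenaline (log2 fold change 3.11, SE 0.67, adjusted p = 0.00156), and S100b, which is also on the brown fat list described below (-1.003, SE 0.27, adjusted p = 0.00611). Th was at 0.99 and not called with the muscle score, the mean log2 CPM of the muscle markers, as a covariate (adjusted p = 0.366), nor was it with limma on log2(FPKM + 1) (0.53), and it rose to 3.95 without Control library 5. S100b lay at the fold threshold and lost its call without any 1 of Control libraries 1 and 2 and Ai-α4KO libraries 1 to 4, with the muscle covariate and under 8 other alternatives, the replicate block among them, and its estimate relative to the adipocyte markers was 0.54. The part of these other cells in the results below was not tested.

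**Figure D1:**
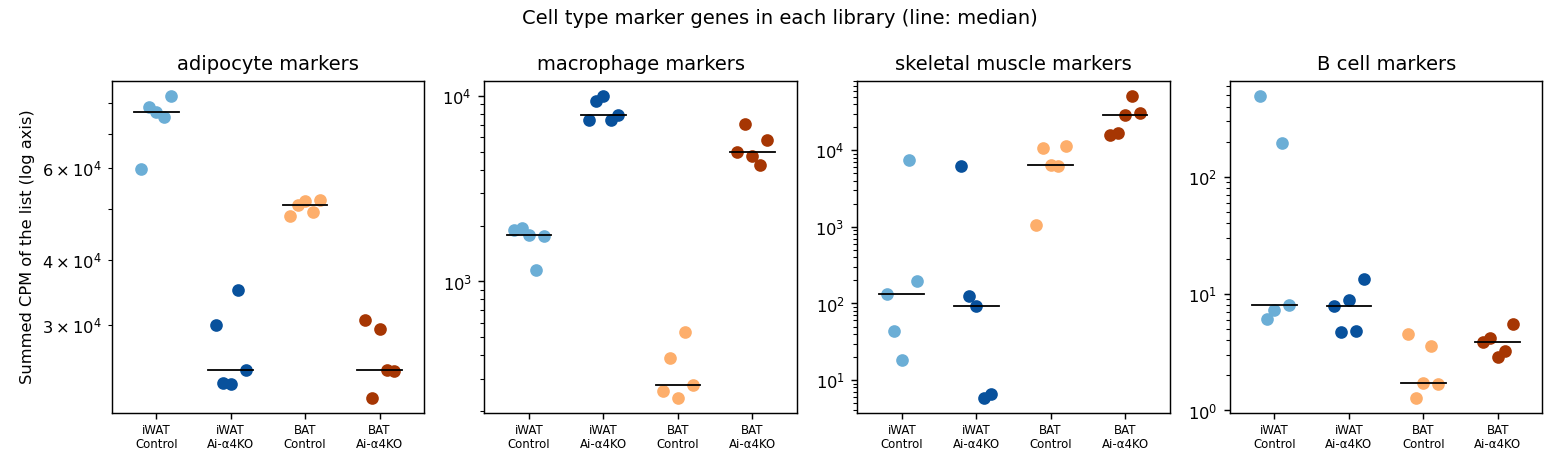
Summed CPM of the adipocyte, macrophage, skeletal muscle and B cell marker lists in each library (log axis, 5 points per group, line at the median). Adipocyte sums are lower and macrophage sums higher in every Ai-α4KO library than in any Control library of the same depot, and muscle sums of the BAT genotypes do not overlap.

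In Control mice all 10 genes were called higher in BAT than in iWAT, against 7.22% of 14260 genes tested (14.7% were called lower in BAT), and the 5 BAT libraries lay above the 5 iWAT libraries for each of the 10. The same separation in either direction was seen for 37.6% of genes. By FPKM, Ucp1 (2478 ± 480, SD, n = 5) and Cidea (2277 ± 390) were the most abundant members in Control BAT, and in each of these libraries Ucp1 ranked between 7 and 17 and Cidea between 9 and 23 among all genes. Their levels did not differ beyond the spread of the libraries. Slc27a2 followed at 86.3 ± 20.6 FPKM. Ebf2 (17.3 ± 2.35), Dio2 (14.4 ± 6.39), Ppargc1b (10.8 ± 2.5), Elovl3 (9.82 ± 8.90) and Ppargc1a (8.91 ± 3.02) came next, each within the spread of its neighbour in this order. The regulators Prdm16 (2.52 ± 0.747) and Zic1 (1.57 ± 0.548) were the least abundant. In Control iWAT the order opened with Cidea (161 ± 116) and Ucp1 (89.4 ± 76.0), which did not differ beyond their spread, and Ebf2 (8.96 ± 2.24), while the other 7 members averaged from 0.00460 FPKM for Zic1 to 2.52 FPKM for Ppargc1a.

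The depot difference in Control mice was widest for Zic1, which was all but absent from iWAT, and narrowest for Ebf2 and Prdm16. Log2 fold changes of BAT over iWAT were 4.94 for Ucp1 (SE 0.95, adjusted p = 0.00123), 5.42 for Slc27a2 (SE 0.54), 4.07 for Elovl3 (SE 0.66), 3.95 for Cidea (SE 0.51) and 3.58 for Dio2 (SE 0.71). They were 2.31 for Ppargc1b (SE 0.21), 1.99 for Ppargc1a (SE 0.26), 1.16 for Prdm16 (SE 0.19) and 1.12 for Ebf2 (SE 0.19). Leaving out 1 library moved some of these by over 1.5 times, Slc27a2 to 6.06 without iWAT library 3, Elovl3 to 3.36 without BAT library 3 and Dio2 to 4.24 without iWAT library 1. Those of Prdm16 and Ebf2 passed the fold threshold narrowly. Prdm16 came to 0.999 without BAT Control library 1, and Ebf2 to 0.91 without iWAT Control libraries 1 and 4, the B cell-rich libraries, and both calls were then lost. The 5 Control iWAT libraries held 3 counts of Zic1 together and the 5 Control BAT libraries 845, a pooled ratio of 400 with a 95% interval from 136 to 1943 that covers counting error only. Library 2 held 2 of the 3 iWAT counts, and without it the fitted log2 difference went from 8.27 to 9.22.

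The program was lower in Ai-α4KO iWAT. Of the 9 members tested there, 8 were called lower in Ai-α4KO and 0 higher, against 10.7% of 14604 genes called lower and 11.3% called higher. The median log2 fold change of the 9 was -2.46, beside 0.01 over all genes tested. In bulk tissue a smaller share of adipocytes and less RNA per adipocyte cannot be told apart, and the fall of the general adipocyte markers given above stands beside each of these values. For 8 of the 9 the 2 genotypes did not overlap, as for 39% of all genes tested.

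Ucp1 (Entrez 22227, chromosome 8, 83290348 to 83298456, plus strand, coordinates of the mm10 table), the uncoupling protein itself, was at 255, 240, 314, 18 and 5.13 CPM in Control iWAT libraries 1 to 5 and at 1.86, 2.53, 0.709, 1.95 and 1.69 CPM in the Ai-α4KO libraries. Control libraries 4 and 5 were thus far below the other 3, yet above all 5 knockout libraries. Mean levels were 166 ± 144 and 1.75 ± 0.661 CPM (SD, n = 5), a fall of 6.57 on the log2 scale or 95-fold (SE 1.07, adjusted p = 3.62e-04). Without the libraries rich in B cell markers the fall was 6.81, and without those rich in muscle markers 6.88.

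Slc27a2 (chromosome 2, 126553024 to 126588243, plus strand) encodes a fatty acid transporter and very long-chain acyl-CoA synthetase. It was at 4.21, 4.57, 14.5, 4.75 and 1.35 CPM in Control iWAT and at 0.143, 0.0684, 0.184, 0.197 and 0.259 CPM in Ai-α4KO iWAT, where each library held only 3 to 11 counts. The groups did not overlap, and the gene fell by 5.09 on the log2 scale (SE 0.63, adjusted p = 5.86e-05), or by 4.47 without Control library 3. Elovl3 (chromosome 19, 46131899 to 46135694, plus strand), which elongates very long-chain fatty acids, was near the limit of detection in iWAT. It had 0.586 to 2.25 CPM in Control and 0.0778 to 0.365 CPM, or 3 to 16 counts, in Ai-α4KO libraries, and fell by 2.66 (SE 0.49, adjusted p = 8.73e-04). With limma on log2(FPKM + 1) Elovl3 was at -0.56 and not called.

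Cidea (chromosome 18, 67343564 to 67367794, plus strand), a lipid droplet protein that is abundant in brown and beige adipocytes, was at 131, 322, 455, 101 and 66.8 CPM in Control iWAT and at 9.23, 9.30, 2.63, 10.2 and 3.53 CPM in Ai-α4KO iWAT. Control libraries 4 and 5 were again the lowest of their group, and the genotypes were apart. Cidea fell by 4.95 on the log2 scale or 30.9-fold (SE 0.64, adjusted p = 7.73e-05).

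The regulators Ppargc1a, Ppargc1b, Prdm16 and Ebf2 were all called lower in iWAT. With limma on log2(FPKM + 1), Ppargc1b (-0.96), Prdm16 (-0.56) and Ebf2 (-0.90) came under the fold threshold. The coactivator Ppargc1a (chromosome 5, 51454249 to 51553921, minus strand), which is induced by cAMP and drives mitochondrial biogenesis, was at 13.6 to 24.5 CPM in Control and 3.36 to 6.73 CPM in Ai-α4KO iWAT and fell by 2 (SE 0.23, adjusted p = 3.52e-05). Its relative Ppargc1b (chromosome 18, 61298136 to 61400431, minus strand), which supports basal mitochondrial gene expression, went from 7.86 to 13.6 CPM down to 2.02 to 3.49 CPM, a fall of 1.81 (SE 0.22, adjusted p = 5.33e-05). Prdm16 (chromosome 4, 154316125 to 154636873, minus strand), a brown and beige fat determination factor, was the steadiest member, at 10.3 to 13.6 CPM against 4.20 to 5.86 CPM. It fell by 1.35 (SE 0.14, adjusted p = 2.08e-05). Ebf2 (chromosome 14, 67233292 to 67430952, plus strand), a factor of committed brown and beige precursors, was at 38.6 to 73.9 CPM against 13.8 to 33.1 CPM and fell by 1.18 (SE 0.25, adjusted p = 0.00213). With the replicate block Ebf2 missed the threshold (-1.19, adjusted p = 0.0119).

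Dio2 (chromosome 12, 90724552 to 90738438, minus strand) and Zic1 (chromosome 9, 91360345 to 91365799, minus strand) were not called in iWAT. Dio2 was at 21.7, 11, 8.04, 2.05 and 1.35 CPM in Control and at 2.23, 2.23, 0.814, 1.88 and 0.882 CPM in Ai-α4KO iWAT. Control libraries 4 and 5 lay among the knockout libraries, and the log2 fold change of -2.46 (SE 0.69) missed the threshold at adjusted p = 0.0107. It passed without Control library 4 (-2.71, adjusted p = 0.00503), without Control library 5 (-2.73, adjusted p = 0.00331) and without the libraries rich in muscle markers (-2.86, adjusted p = 0.0074). It also passed with the DESeq2 Wald test (-2.48, adjusted p = 1.3e-04), with 1 fit of all libraries (-2.46, adjusted p = 0.00175), with upper-quartile factors (-2.56, adjusted p = 0.0094) and among genes with at least 10 counts in every library (-2.47, adjusted p = 0.00915). It missed it by more without Control library 1 (-1.87, adjusted p = 0.0259) and without the B cell-rich libraries (-2.15, adjusted p = 0.0125), and over all single libraries the adjusted p reached 0.0295. The call thus depended on the fit. Zic1 did not enter the iWAT test. It had 0 counts in 3 of the 5 libraries of either genotype, 3 counts in all in Control and 13 in Ai-α4KO, of which library 1 held 9 and library 5 held 4. The pooled ratio of 3.58 had a 95% counting interval from 0.984 to 19.6.

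**Figure D2:**
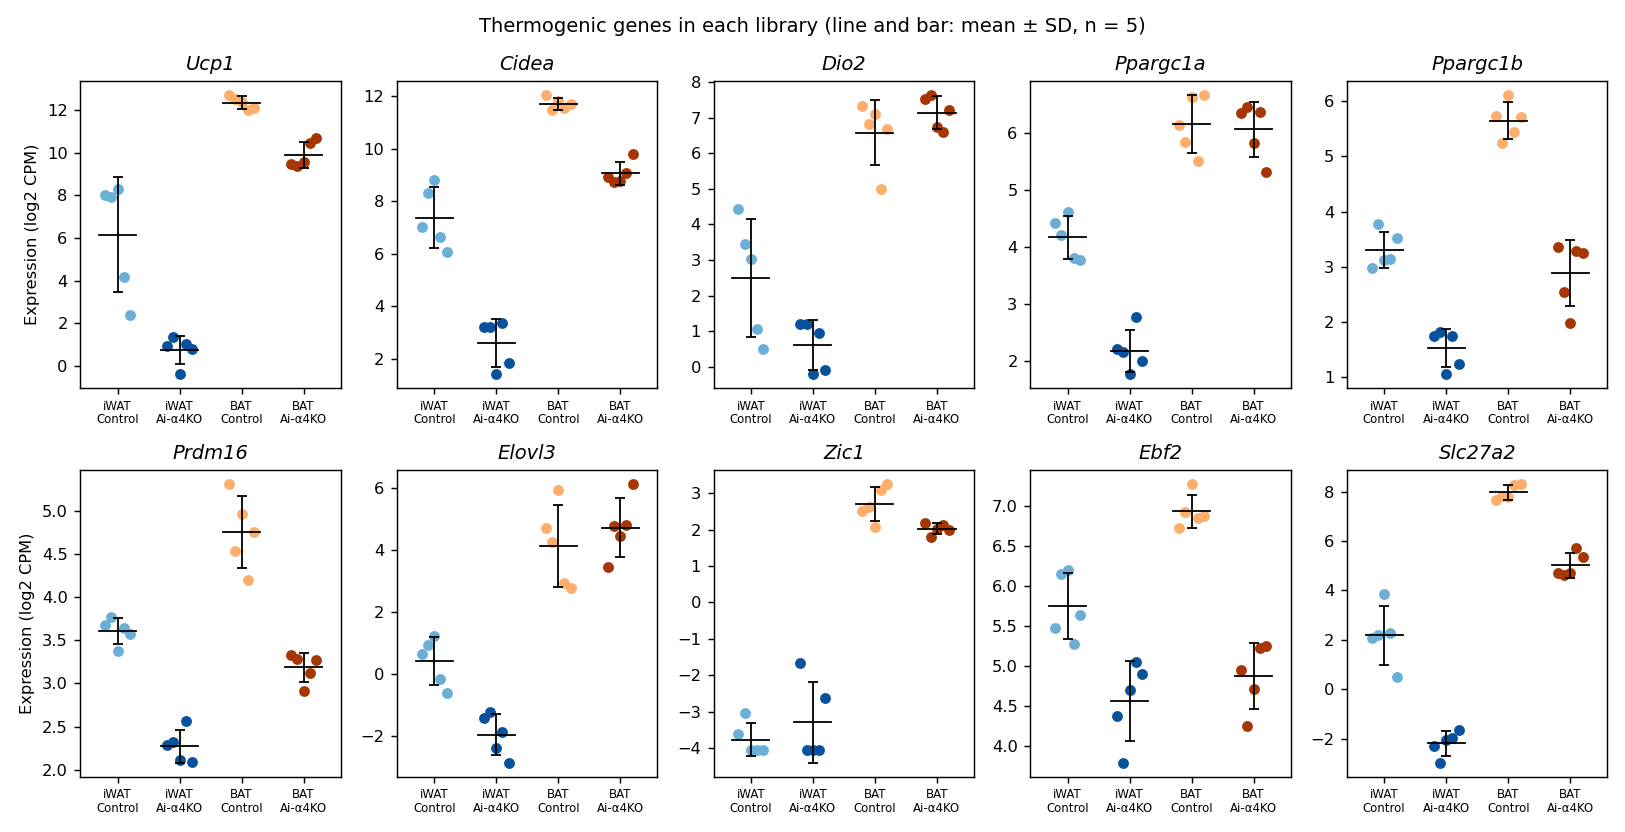
Level of each of the 10 genes in each library, as log2 CPM with a prior count of 2, by depot and genotype (line and bar show the mean ± SD of 5 libraries). In iWAT the Ai-α4KO points lie below all Control points for 8 genes, all but Dio2 and Zic1, and in BAT for 6 genes, all but Dio2, Ppargc1a, Elovl3 and Zic1.

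In BAT the members split. Ai-α4KO BAT had lower Ucp1, Cidea, Ppargc1b, Prdm16, Ebf2 and Slc27a2, while Dio2, Ppargc1a, Elovl3 and Zic1 were not called. The count of 6 of 10 lower and 0 higher stands against 13.3% of 14344 genes called lower and 18.2% called higher. The median log2 fold change of the 10 was -1.86, beside -0.03 over all genes tested. The same 6 genes did not overlap between genotypes, as for 47.6% of all genes. The skeletal muscle sum differed between these groups without overlap, as given above. With the muscle score as a covariate, an alternative chosen after the data were seen, the number called lower was again 6. In that fit 1592 of 14344 genes were called lower and 1707 higher. Since the muscle sums separate the genotypes, this covariate and the genotype cannot be fully told apart.

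Ucp1 was at 6674, 5947, 5288, 4095 and 4325 CPM in Control BAT libraries 1 to 5 and at 706, 657, 755, 1400 and 1629 CPM in the Ai-α4KO libraries. Every knockout library was below every Control library, and knockout libraries 4 and 5 were above the other 3. The gene fell by 2.39 on the log2 scale or 5.23-fold (SE 0.29, adjusted p = 1.85e-05), from 5266 ± 1085 to 1030 ± 451 CPM (SD, n = 5). Per length it was still at 565 ± 234 FPKM, ranking between 86 and 212 among all genes in the knockout BAT libraries.

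Of the other 5 lowered genes, 3 had larger estimates than Ucp1 and 2 smaller ones. Slc27a2 fell by 2.94 (SE 0.25, adjusted p = 1.18e-06), from 204 to 319 CPM in Control down to 24.3 to 52.8 CPM. Ppargc1b fell by 2.75 (SE 0.27, adjusted p = 3.38e-06), from 37.6 to 69.2 CPM down to 3.90 to 10.2 CPM. Cidea fell by 2.65 (SE 0.23, adjusted p = 1.46e-06), from 2871 to 4247 CPM down to 426 to 901 CPM. The lineage factors were lower too. Ebf2 fell by 2.06 (SE 0.19, adjusted p = 2.16e-06), from 106 to 156 CPM down to 19.1 to 38.0 CPM, and Prdm16 by 1.65 (SE 0.19, adjusted p = 1.59e-05), from 18.3 to 39.8 CPM down to a mean of 9.08 ± 1.03 CPM. The Prdm16 call was lost with limma on log2(FPKM + 1).

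Ppargc1a, the coactivator most closely tied to adrenergic stimulation, was at 70.1, 57.3, 99.2, 45.2 and 101 CPM in Control BAT and at 81.5, 87.6, 56.6, 81.8 and 39.7 CPM in Ai-α4KO BAT. The 2 ranges lay over each other, and the log2 fold change was -0.15 (SE 0.26, adjusted p = 0.642). Dio2 had 160, 113, 136, 31.7 and 102 CPM in Control and 184, 198, 106, 96.0 and 149 CPM in Ai-α4KO BAT. Apart from the low Control library 4 the values interleaved, and the log2 fold change was 0.40 (SE 0.35, adjusted p = 0.336). Elovl3 was the most variable member, at 26, 19.1, 61.1, 7.55 and 6.81 CPM in Control and 10.8, 26.9, 21.9, 27.8 and 70.0 CPM in Ai-α4KO BAT. Its log2 fold change of 0.36 (SE 0.60, adjusted p = 0.624) turned to -0.18 without Ai-α4KO library 5 and rose to 1.06 without Control library 3. A missed threshold at this spread does not show equal levels.

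Zic1 was at 5.60, 6.06, 4.12, 8.36 and 9.52 CPM in Control BAT and at 4.47, 3.42, 3.98, 4.34 and 3.94 CPM in Ai-α4KO BAT. Control library 3 lay within the knockout range. The log2 fold change was -0.78 (SE 0.23), with an adjusted p of 0.00955 by edgeR's quasi-likelihood test but a fold change below 2, so the gene was not called.

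**Figure D3:**
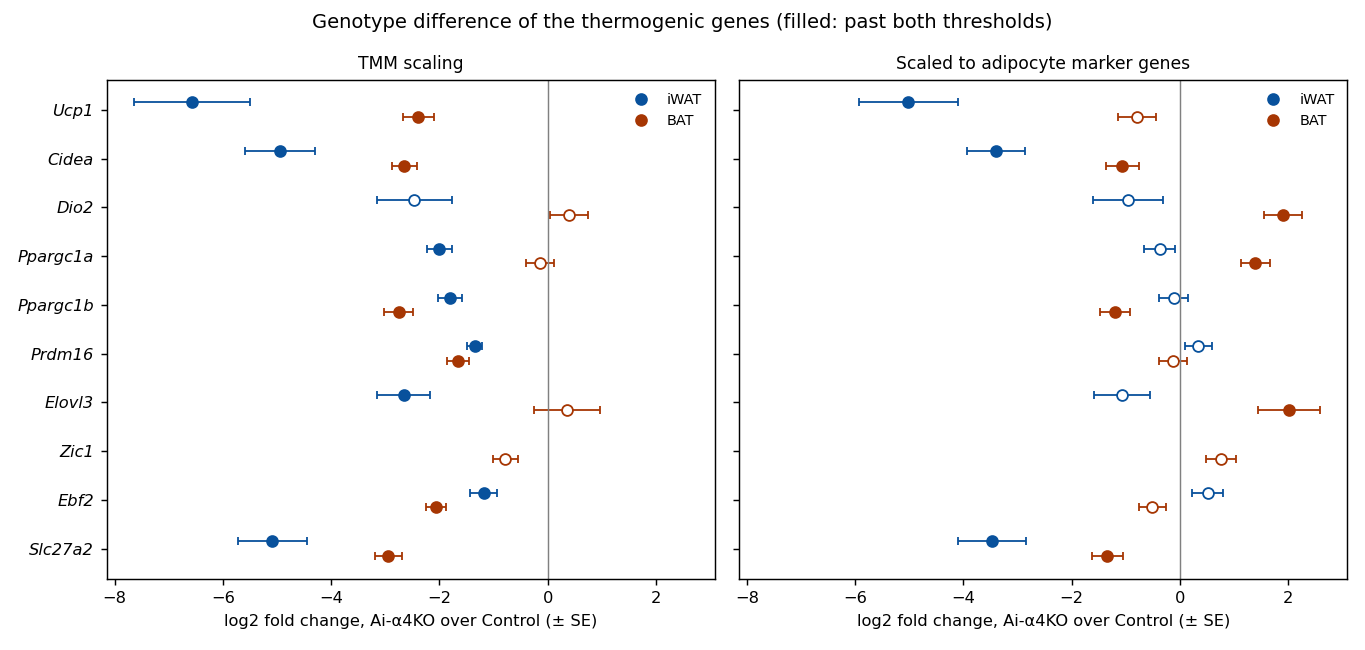
Log2 fold change of Ai-α4KO over Control with its SE for each gene in iWAT and BAT, with TMM scaling (left) and with libraries scaled to the 16 adipocyte markers (right). Filled points were called, and Zic1 was not tested in iWAT. With TMM scaling no filled point lies right of 0, and Dio2, Ppargc1a and Elovl3 in BAT lie near 0.

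Whether the genotype changed the genes differently in the 2 depots was tested as an interaction over all 20 libraries. Ppargc1a and Ucp1 passed adjusted p below 0.01 by edgeR's quasi-likelihood test, against 4.86% of 15230 genes tested. The change of Ppargc1a in BAT minus that in iWAT was 1.89 on the log2 scale (SE 0.36, adjusted p = 0.00266), and that of Ucp1 was 4.21 (SE 0.99, adjusted p = 0.00882). The Ucp1 value rested on a wide spread in Control iWAT, and its adjusted p rose above 0.01 in 15 of the 20 fits that left out a library, with the replicate block (0.0232) and with limma on log2(FPKM + 1) (0.204) and log2(FPKM + 0.1) (0.0977). The call of Ppargc1a was lost with limma on log2(FPKM + 1) (1.17, adjusted p = 0.016). Cidea (2.33, adjusted p = 0.0193), Dio2 (2.89, adjusted p = 0.0211), Elovl3 (3.03, adjusted p = 0.0264) and Slc27a2 (2.16, adjusted p = 0.034) had estimates of the same sign and missed the threshold, though all 4 passed with the DESeq2 Wald test (adjusted p from 0.00106 to 0.00488). Without BAT Control library 3 the Elovl3 estimate was 3.72 and passed (adjusted p = 0.00685), and without iWAT Control library 3 that of Slc27a2 was 1.52. Cidea, Dio2 and Slc27a2 each passed in 1 fit that left out a library (adjusted p = 0.00869, 0.00757 and 0.00791). The sign of the Slc27a2 estimate turned with limma on log2(FPKM + 1). The estimates of Ppargc1b (-0.90, adjusted p = 0.0836), Ebf2 (-0.85, adjusted p = 0.0820) and Prdm16 (-0.28, adjusted p = 0.444) had the other sign and missed it too, as did Zic1, whose iWAT counts were at or near 0.

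Among Ai-α4KO libraries, 8 of the 10 genes were called higher in BAT than in iWAT, against 8.40% of 14703 genes called higher and 3.09% called lower. Muscle sums were also higher in each of these BAT libraries than in any of the iWAT libraries. With the muscle score as a covariate, chosen after the data were seen, 4 of the 8 calls were lost, those of Cidea (5.86, adjusted p = 0.0131), Elovl3 (5.84, adjusted p = 0.0532), Zic1 (3.88, adjusted p = 0.12) and Ppargc1b (1.19, adjusted p = 0.268), and those of Ucp1, Slc27a2, Dio2 and Ppargc1a were kept. In that fit only 10 of 14703 genes were called higher and 27 lower. Muscle markers follow depot in these libraries, and the 2 cannot be told apart. The differences of Ucp1 (9.26, SE 0.49), Slc27a2 (7.67, SE 0.38), Elovl3 (7.19, SE 0.60), Dio2 (6.55, SE 0.38), Cidea (6.37, SE 0.47) and Ppargc1a (3.96, SE 0.26) on the log2 scale, all called without that covariate, stood beside the Control values of 4.94, 5.42, 4.07, 3.58, 3.95 and 1.99. These contrasts share their libraries with the genotype comparisons, and the test of the change in the depot difference is the interaction above. Ppargc1b was at 1.49 (SE 0.29), called without the covariate but not with limma on log2(FPKM + 1) (0.70). Prdm16 (0.97, SE 0.15) was under the fold threshold with no overlap between depots, and passed it without iWAT library 4 (1.04) or BAT library 3 (1.03). Ebf2 (0.35, SE 0.25, adjusted p = 0.292) overlapped, at 19.1 to 38.0 CPM in BAT and 13.8 to 33.1 CPM in iWAT. Zic1 had 634 counts in the 5 knockout BAT libraries and 13 in the 5 iWAT libraries, a pooled ratio of 65.5 with a 95% counting interval from 38.0 to 124. The interval does not cover the spread of libraries, since 9 of the 13 iWAT counts were in library 1, without which the fitted log2 difference went from 5.92 to 7.30. Between the knockout depots 9 of the 10 genes did not overlap, as for 25.2% of all genes.

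**Figure D4:**
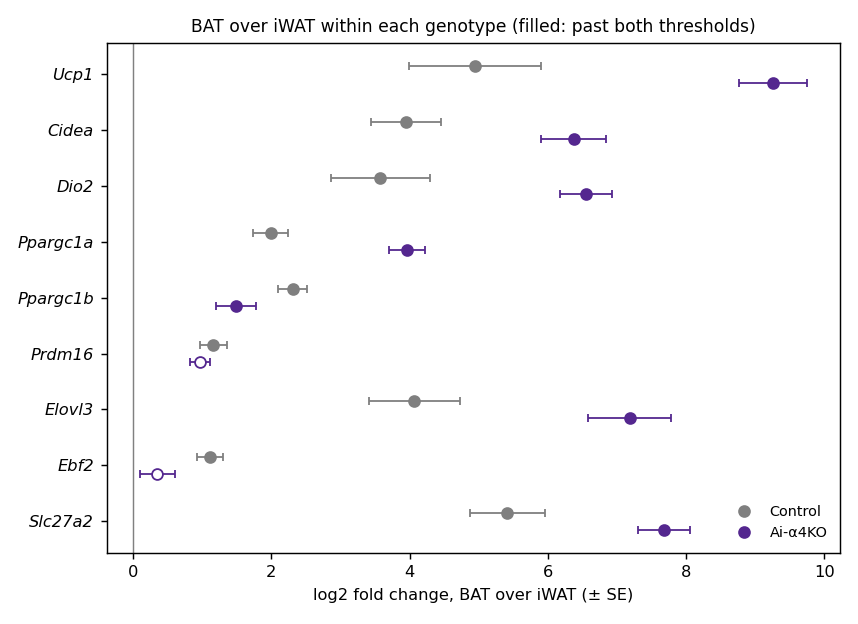
Log2 fold change of BAT over iWAT with its SE within Control and within Ai-α4KO mice for 9 genes; Zic1, with 3 counts in all in Control iWAT, is left out. All 9 Control points are filled (called), and Prdm16 and Ebf2 are open in Ai-α4KO, at 0.97 and 0.35.

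Because the adipocyte markers fell in both depots, each gene was also fitted with libraries scaled to the geometric mean of the 16 markers. This asks how a gene stood relative to the general adipocyte genes of the same library, and it moved the median log2 fold change of all genes to 1.72 in iWAT and 1.5 in BAT. In iWAT 3 of the 9 members were still lower, against 0.698% of all genes. These were Ucp1 by -5.02 (SE 0.92, adjusted p = 1.08e-04), Slc27a2 by -3.47 (SE 0.63, adjusted p = 1.07e-04) and Cidea by -3.40 (SE 0.54, adjusted p = 2.92e-05), log2 fold changes relative to the markers. As log2 CPM minus the marker mean, Ucp1 in Control library 5 (-8.89) lay within the knockout range (-9.31 to -7.65). Slc27a2 in Control library 5 (-10.77) lay below knockout library 5 (-10.65). Cidea alone of these kept the genotypes apart (lowest Control -5.20, highest knockout -5.80). Ppargc1a (-0.38, SE 0.29), Ppargc1b (-0.12, SE 0.27), Prdm16 (0.34, SE 0.25) and Ebf2 (0.51, SE 0.29) were not called, each within 2 SE of the marker change. Dio2 (-0.96, SE 0.65) and Elovl3 (-1.07, SE 0.52) were not called either. Without Control library 1 Dio2 was at -0.18, and without Control library 3 Slc27a2 was at -2.77.

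In BAT Slc27a2 (-1.34, SE 0.29, adjusted p = 2.73e-04), Ppargc1b (-1.20, SE 0.28, adjusted p = 5.39e-04) and Cidea (-1.07, SE 0.31, adjusted p = 0.00316) were lower relative to the adipocyte markers, against 1.07% of all genes. Cidea lay at the fold threshold, and its call was lost without Control library 1 (-0.95) and without Ai-α4KO libraries 1 (-0.92), 2 (-1.01) or 3 (-0.96), and with the muscle score as a covariate (-0.99, adjusted p = 0.0387). Ucp1 was at -0.80 (SE 0.35, adjusted p = 0.0407) and was called without Ai-α4KO library 5 (-1.13, adjusted p = 0.00466). Elovl3 (2.02, SE 0.57), Dio2 (1.90, SE 0.35) and Ppargc1a (1.39, SE 0.26) were called higher than the markers, but so were 71.1% of all genes, so the count carries no information on these members. Elovl3 lost this call without Ai-α4KO library 5 (1.37, adjusted p = 0.0187) and was at 2.64 without Control library 3. With the muscle score as a covariate Slc27a2 was at -1.95. Zic1 (0.76, SE 0.28), Prdm16 (-0.13, SE 0.26) and Ebf2 (-0.51, SE 0.25) were not called.

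Across the 20 libraries the levels of the 10 genes moved together, with Pearson's r of log2 CPM from 0.397 (Dio2 and Ebf2) to 0.975 (Ucp1 and Cidea) and a median of 0.850 over the 45 pairs. These values mainly reflect the 4 groups. After the group means were removed, r ranged from -0.266 (Prdm16 and Slc27a2) to 0.778 (Ucp1 and Dio2) with a median of 0.259, and 6 of the 45 pairs were negative. The closest partners of Ucp1 among the members within groups were Dio2 and Cidea (0.763). Of the 15220 genes ranked by likeness to Ucp1 over the 20 libraries, Pde4d (0.970), Cpn2 (0.968), Cox8b (0.962), Kctd1 (0.960) and Cox7a1 (0.960) came first by level. Within groups they were Rgs2 (0.857), Rassf9 (0.849), Slc25a34 (0.843), Cpt1b (0.820) and Otop1 (0.807). The points share library scaling and cell make-up, so these are descriptions.

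Some genes upstream of the program were lower as well. Of 12 genes of adrenergic input, 5 were called lower in iWAT and 6 in BAT and 0 higher, against 10.7% and 13.3% of all genes called lower, with median log2 fold changes of -0.86 and -1.01, beside 0.01 and -0.03 over all genes tested. The direction of this list depended on the scaling. Relative to the adipocyte markers 0 were lower and 6 higher in iWAT (median 0.83) and 1 lower and 3 higher in BAT (median 0.53), where 75.1% and 71.1% of all genes were called higher. Adrb3, the β3-adrenergic receptor of adipocytes, fell by 1.63 in iWAT (SE 0.34, adjusted p = 0.002) and by 1.32 in BAT (SE 0.27, adjusted p = 0.001). With the muscle score as a covariate the BAT value was -1.25 and missed the threshold (adjusted p = 0.0197). Prkar2b, a regulatory subunit of protein kinase A, fell by 1.87 and 2.58, and Pde3b, the phosphodiesterase through which insulin lowers cAMP, by 1.85 and 2.09. In iWAT Prkaca, the catalytic subunit, fell by 1.14, and in BAT Gnas, the stimulatory G protein, by 1.90 and the adenylyl cyclase Adcy3 by 1.46.

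Of the transcription factors around the program, 6 of 19 were called lower and 1 higher in iWAT, and 6 of 18 lower and 1 higher in BAT, with medians of -0.84 and -0.56. Over all genes 10.7% were lower and 11.3% higher in iWAT, and 13.3% and 18.2% in BAT, so the single genes called higher were below the share of all genes. Ppara, the fatty acid receptor that drives oxidation genes, fell by 2.77 in iWAT and 2.55 in BAT, and Pparg, the master factor of adipocytes, by 1.38 and 1.63. Foxc2 (by 1.74) and the thyroid hormone receptor Thra (by 1.24) fell in iWAT. Irf4, which couples cAMP to Ppargc1a, fell by 2.29 in BAT, and Tbx15 rose by 1.96 there. The adjusted p of these genes was at most 0.00279. Foxc2 lost its call without Ai-α4KO library 3 (-1.65, adjusted p = 0.0103) and without the B cell-rich libraries (-1.61), and also with the replicate block (adjusted p = 0.013), 1 fit of all libraries (adjusted p = 0.0237) and either limma fit. Tbx15 came to 0.49 and was not called with the muscle score as a covariate (adjusted p = 0.0718).

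Of 12 other brown fat markers, 9 were called lower and 1 higher in each depot, with medians of -1.63 in iWAT and -1.27 in BAT. Of all genes, 10.7% (iWAT) and 13.3% (BAT) were called lower and 11.3% and 18.2% higher. Relative to the adipocyte markers 2 were lower in iWAT (median 0.02) and 1 in BAT (median 0.31), against 0.698% and 1.07% of all genes, with 1 higher in each, against 75.1% and 71.1%. The muscle and heart isoforms of cytochrome oxidase subunits, Cox7a1 and Cox8b, fell in iWAT by 3.50 (SE 0.40) and 2.38 (SE 0.38). In BAT their log2 fold changes of -1.08 (SE 0.32, adjusted p = 0.0103) and -1.19 (SE 0.36, adjusted p = 0.0121) missed the threshold, and Cox7a1 passed the interaction (2.44, SE 0.52, adjusted p = 0.00509) where Cox8b did not (1.22, SE 0.55, adjusted p = 0.136). Skeletal muscle also expresses both genes, and the muscle sums of the BAT genotypes did not overlap. With the muscle score as a covariate their BAT values were -1.25 (adjusted p = 0.0685) and -1.31 (adjusted p = 0.0939). Both passed without Ai-α4KO BAT library 5, at -1.28 and -1.40, and with the DESeq2 Wald test (adjusted p = 0.00167 and 0.00173), and Cox7a1 also without Ai-α4KO library 4 (-1.16) and with no filter on low counts (-1.10). The potassium channel gene Kcnk3 fell by 3.75 in iWAT and 2.95 in BAT, Mpzl2 by 3.10 (3.68 without Ai-α4KO library 2) and 2.27, and Letmd1 by 2.45 in BAT. Epsti1, an interferon-responsive gene on the brown list, rose by 3.90 in BAT (SE 0.29, adjusted p = 3.85e-07).

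The beige list did not move as a block. In iWAT 2 of 10 were called higher and 1 lower, and in BAT 4 of 7 higher and 2 lower, with medians of -0.06 and 1.33. Over all genes 11.3% and 18.2% were called higher and 10.7% and 13.3% lower. Slc36a2, an amino acid transporter of brown and beige fat, fell by 2.03 and 2.16. Ear2, an eosinophil-associated ribonuclease, rose by 3.54 in iWAT and 4.37 in BAT, and Tnfrsf9, a receptor also found on lymphocytes, by 3.47 in BAT. The nuclear body protein Sp100 rose by 1.19 in iWAT and Tmem26 by 2.65 in BAT. With the muscle covariate Ear2 in BAT was at 3.55 and missed the threshold (adjusted p = 0.0109), Tmem26 was at 3.37, and without Control library 4 Ear2 was at 5.35. Of 8 macrophage markers, 7 were called higher in Ai-α4KO iWAT and 8 in BAT, against 11.3% and 18.2% of all genes. The part of immune cells in these beige-list values was not tested. Of the white fat list, 4 of 7 were called lower in iWAT, namely Slc7a10 (-1.47), Hoxc8 (-1.21), Agt (-1.16) and Nrip1 (-1.13), and 0 of 6 in either direction in BAT, with medians of -1.16 and 0.05, against 10.7% and 13.3% of all genes called lower. The calls of Agt (-1.43 to -0.87) and Nrip1 (-1.36 to -0.95) were lost in 7 and 6 of the 10 fits without 1 library, for Agt those without Control library 1, 4 or 5 or Ai-α4KO library 2, 3, 4 or 5, and for Nrip1 those without Control library 2 or 5 or Ai-α4KO library 1, 2, 3 or 5. Both were also lost by library size only, with either limma fit, with 1 fit of all libraries and with the replicate block, and Agt with no filter on low counts and without the B cell-rich libraries.

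Most genes that supply fuel were called lower with TMM scaling. Of 17, 11 were called lower in iWAT and 13 in BAT and 0 higher, against 10.7% and 13.3% of all genes called lower, with medians of -1.52 and -1.67. Relative to the adipocyte markers 0 were lower and 3 higher in iWAT (median 0.16) and 2 lower and 2 higher in BAT (median -0.11), against 0.698% and 1.07% of all genes lower and 75.1% and 71.1% higher. Of the 17, Pnpla2, Lipe, Lpl and Cd36 are themselves among the 16 scaling markers, and without these 4 the counts were 0 lower and 2 higher in iWAT (median 0.23) and 1 lower and 2 higher in BAT (median -0.11). Pnpla2, the adipose triglyceride lipase, fell by 2.15 in iWAT and 2.59 in BAT, and Acadvl, the first enzyme of mitochondrial long-chain oxidation, by 2.34 and 2.29. Slc27a1, a fatty acid transporter, fell by 2.35 and the hormone-sensitive lipase Lipe by 1.93 in iWAT. In BAT the acyl-CoA thioesterase Acot11 fell by 3.26 and the medium-chain dehydrogenase Acadm by 2.11.

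Secreted factors went both ways. The stress hormones Fgf21 and Gdf15 rose by 5.71 (SE 0.41) and 6.09 (SE 0.73) in iWAT and by 4.89 (SE 0.61) and 4.71 (SE 0.69) in BAT. Gdf15 was at 6.86 in iWAT without Control library 1, 7.98 without the B cell-rich libraries, and 5.35 in BAT without Control library 4, and Fgf21 in BAT at 6.11 with the muscle covariate. Nrg4, a factor released by brown adipocytes, fell by 2.48 and 2.29 and the angiogenic factor Vegfa by 2 in iWAT, while Metrnl rose by 2.79 in BAT. In all, 3 of 7 were called higher and 2 lower in iWAT, and 4 of 8 higher and 3 lower in BAT, with medians of 0.90 and 0.85. Of all genes, 11.3% and 18.2% were called higher and 10.7% and 13.3% lower.

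Of 26 family relatives of the members, 18 were tested in iWAT (2 higher, 7 lower) and 20 in BAT (4 higher, 9 lower), with medians of -0.21 and -0.58. The counts higher were near the share of all genes, 11.3% in iWAT and 18.2% in BAT, while 10.7% and 13.3% of all genes were called lower. Ucp2, the widely expressed uncoupling protein homologue found also in macrophages, rose narrowly by 1.08 in iWAT (SE 0.23, adjusted p = 0.00203; 0.98 and not called without Control library 5, without the muscle-rich libraries or with upper-quartile factors) and by 1.59 in BAT (SE 0.19, adjusted p = 1.47e-05), from 84.5 ± 20.1 to 260 ± 50.2 CPM in the latter (SD, n = 5). Ucp3, the homologue of muscle and brown fat, fell by 2.15 in iWAT (SE 0.34) and narrowly by 1.02 in BAT (SE 0.26, adjusted p = 0.00449). That BAT call was lost without Control library 5 or Ai-α4KO library 1, 2 or 3, with values between -1.02 and -0.85, and also with DESeq2 (-0.99), library size only (-0.78), upper-quartile factors (-0.98), at least 10 counts in every library (-0.96), 1 fit of all libraries (-0.98) and the limma fits with a pseudocount of 1 (-0.75) or 0.1 (-0.78), while with the muscle score as a covariate the value was -1.44 (adjusted p = 0.00713). The other CIDE proteins fell with Cidea, as Cideb did by 2.55 in iWAT and 3.45 in BAT, and Cidec, the lipid droplet protein of all fat cells, by 1.47 and 1.22. With the muscle covariate Cidec in BAT was at -0.95 and not called (adjusted p = 0.0513), nor was it by library size only (-0.94) or with limma on log2(FPKM + 1) or log2(FPKM + 0.1) (-0.96 in both). Elovl6, which elongates palmitate, fell by 3.38 and 2.31, and Elovl7 rose by 1.99 in BAT, or 1.86 with the muscle covariate, where it was not called (adjusted p = 0.0139).

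The other lists too stood differently against the adipocyte markers, relative to which the median of all genes was 1.72 in iWAT and 1.5 in BAT, with 0.698% and 1.07% called lower and 75.1% and 71.1% higher. Pparg, Lep and Cidec are scaling markers as well as genes of the transcription, white and relatives lists. In iWAT and BAT respectively the transcription list had 1 and 0 lower and 8 and 8 higher of 19 and 18 (medians 0.84 and 0.98). The family relatives had 1 and 1 lower and 10 and 9 higher of 18 and 20 (medians 1.51 and 0.94). The beige (5 of 10 and 5 of 7 higher), white (2 of 7 and 4 of 6) and secreted (5 of 7 and 5 of 8) lists had 0 lower in either depot. With limma on log2(FPKM + 1), whose pseudocount compresses low values, Prkaca and Cideb in iWAT and Tmem26 and Elovl7 in BAT came under the fold threshold.

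**Figure D5:**
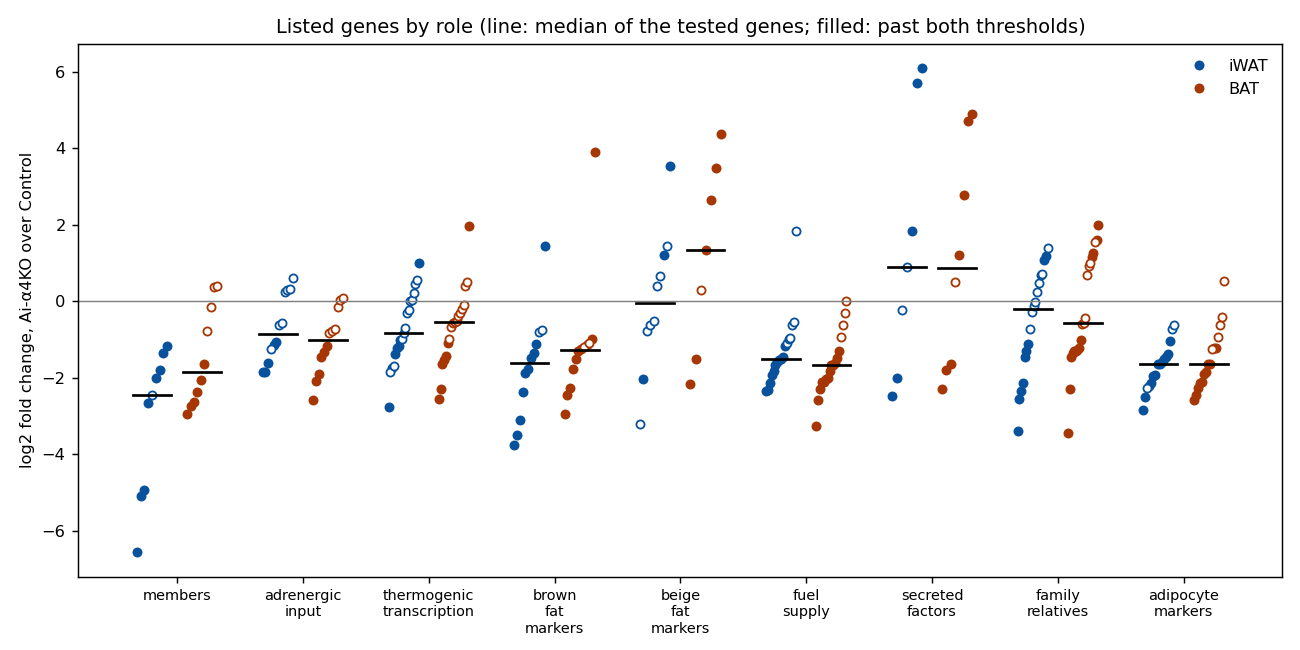
Log2 fold change of Ai-α4KO over Control for the tested genes of 9 lists by role, in iWAT and BAT with TMM scaling (line at the median of each list, filled points called). The member median is -2.46 in iWAT and -1.86 in BAT, the fuel supply list lies almost wholly below 0, and the beige and secreted lists extend on both sides.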

How the data were processed

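RNA-seq libraries of iWAT and BAT (5 per tissue and genotype) were made with a stranded mRNA kit. Per the submitters' processing notes, bcl2fastq 2, STAR 2.5.3a and mm10 were used; the counting tool and annotation release are not given in the sources used here. The authors deposited expected counts per gene without normalization, 76.6% of the nonzero ones whole, and FPKM values per gene and library. Doses and times come from the study's methods.

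The counts, rounded to whole numbers, were fitted with edgeR 4.0.16 under R 4.3.3 (filterByExpr, TMM, glmQLFit, quasi-likelihood test, Benjamini-Hochberg adjustment over all genes tested, adjusted p below 0.01 and fold of at least 2; the interaction needed the adjusted p alone). SE is the absolute log2 fold change divided by the square root of F. Log2 CPM used a prior count of 2. Adipocyte scaling used 16 markers. The members and lists were chosen with earlier results of these data known. Named genes were all members, up to 4 called genes with the largest change per list and tissue, 7 further fixed genes (Adrb3, Ucp2, Ucp3, Cidec, Pparg, Cox7a1 and Cox8b) and the 5 genes most like Ucp1 by each measure. Alternatives were the DESeq2 1.42.0 Wald test, other scalings and filters, an adjusted p below 0.05, limma 3.58.1 on log2(FPKM + 1) and log2(FPKM + 0.1), 1 fit of all libraries, a replicate block and leaving out each library. The robustness of a list gene was examined only in the tissue where it is named, a restriction made after the first results of these alternatives were seen. The fits were also run on simulated counts in which the scaling markers did not change, a setting that differs from the fall of the markers here. Library totals ran from 24023371 to 50384446 counts. Counting intervals (95%, exact) cover counting error only. The authors' annotation columns were read for 6 terms.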

Additional observations from a re-analysis of the deposited data

Results flagged for a closer look

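Dio2 in Control BAT library 4 was at 31.7 CPM, against 102 to 160 CPM in the other 4 libraries of its group, and on the log2 CPM scale (4.99 against 6.68 to 7.32) the gap was larger than the 95% limit of Dixon's test for 5 values (0.71 of the range). This was the only such library among the 40 groups of values checked, 10 genes in 4 groups, and chance alone gives about 1 in 20.

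The genotype difference between the depots passed the interaction test for Ppargc1a and Ucp1. The log2 change in BAT minus that in iWAT was 1.89 for Ppargc1a and 4.21 for Ucp1 by the interaction term of edgeR's quasi-likelihood test, with adjusted p = 0.00266 and adjusted p = 0.00882. The Ucp1 call was lost in 15 of the 20 fits without 1 library, with the replicate block (adjusted p = 0.0232) and with limma on log2(FPKM + 1) and log2(FPKM + 0.1) (adjusted p = 0.204 and 0.0977), and the Ppargc1a call with limma on log2(FPKM + 1) (adjusted p = 0.016).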

How the results depend on the processing

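The number of members lower in Ai-α4KO iWAT was 8 and became 4 with limma on log2(FPKM + 1), whose pseudocount compresses the changes of low genes. It was 8 to 9 when single libraries were left out, 8 without the B cell libraries and 9 without the muscle libraries. It was also 9, with Dio2 called, with DESeq2, upper-quartile factors, 1 fit of all libraries and an adjusted p below 0.05, 7 with the replicate block, and 7 with at least 10 counts in every library, where Dio2 was called and Slc27a2 and Elovl3 were not tested. In BAT it was 5 with limma on log2(FPKM + 1) and 6 under each other alternative, including each left-out library (6 to 6). The number higher in BAT than iWAT in Control was 10, with 9 to 10 over single libraries and 8 by library size only or with either limma fit, where Prdm16 and Ebf2 were not called. In Ai-α4KO it was 8, with 8 to 9 over single libraries, 5 with at least 10 counts in every library, where fewer genes are tested, and 4 with the muscle score as a covariate, a fit in which only 10 genes of the table were called higher. The 2 interactions became 6 with DESeq2, 6 at an adjusted p below 0.05, 0 with limma on log2(FPKM + 1), 1 with limma on log2(FPKM + 0.1) and 1 with the replicate block, and 1 to 5 when single libraries were left out, the 5 coming without iWAT Control library 5; the cause was not tested. Relative to the adipocyte markers, members lower were 3 to 3 in iWAT and 2 to 4 in BAT over single libraries, 2 without Control library 1 or Ai-α4KO library 1, 2 or 3, and members higher 2 to 3. Igbp1 had a log2 fold change of -2.76 to -2.62 (iWAT) and -2.64 to -2.44 (BAT). Signs turned for Ppargc1a in BAT (0.13 by library size only, 0.12 and 0.13 with limma on log2(FPKM + 1) and log2(FPKM + 0.1)), Elovl3 in BAT (-0.18 without Ai-α4KO library 5, range up to 1.06), the Slc27a2 interaction (-1.19 with limma on log2(FPKM + 1)), Ppargc1b in iWAT relative to the markers (0.030 without Control library 2, range down to -0.27) and Prdm16 in BAT relative to the markers (0.073 without Control library 1, range down to -0.25, and 0.27 with the muscle covariate); none of these was called. Scaling by library size alone moved the median log2 fold change of all genes in iWAT from 0.01 to 0.13 and in BAT from -0.03 to 0.23, and the split of higher to lower calls from 2614 and 1910 to 3251 and 1265 in BAT, from 1030 and 2092 to 740 and 2496 between Control depots, from 1235 and 454 to 1024 and 772 between knockout depots, and from 496 and 244 to 604 and 115 for the interaction (626 and 147 with upper-quartile factors). Correlations of same-numbered deviations ran from -0.396 to 0.284, and 5 libraries a group cannot settle whether the replicate numbers pair them. The same-numbered BAT library was the best match for Control iWAT libraries 1 and 5 and knockout iWAT libraries 2 and 3, but not for the others. With the replicate block the interaction count was 1 (Ucp1 at adjusted p = 0.0232) and Ebf2 in iWAT missed the threshold (adjusted p = 0.0119), while Ucp1 was at -5.57 in iWAT, -3.99 there relative to the markers and 5.93 between Control depots, all called. Zic1 in iWAT and Slc27a2 and Elovl3 in knockout iWAT were limited by depth, with at most 16 counts in a library.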
